A study of Bos taurus with 6 samples.

Results

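The middle zone of bovine articular cartilage was compared with the 2 zones that enclose it, to describe genes whose expression peaks or dips at mid-depth instead of following the depth of the tissue. All 6 arrays of the series entered the comparison, and 24016 of 24128 probesets were tested. The arrays hold normal (grade 1), untreated cartilage of the medial and lateral knee condyles of 2 skeletally mature cattle aged 14 to 30 months, with 1 array per animal for the superficial zone (SZ), the middle zone (MZ) and the deep zone (DZ). Per the labels' protocols the cartilage was cut from the surface into sections of 50 µm. The top 10% of them made up SZ, the middle 40% MZ and the lower 30% DZ, and about 200 µm was thrown away at each border. Animal 1 and animal 2 below are the replicate numbers of the labels. No breed, sex or genotype was used here.

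Articular cartilage has no vessels, and its chondrocytes change in shape and output with depth. Flattened cells at the surface secrete lubricant, rounded cells of the middle zone lie in a matrix rich in aggrecan, and cells of the deep zone stand in columns above calcified cartilage and bone. The middle zone has few markers of its own, and it is usually described by what the other zones have and it lacks. In a design with 3 depths, a gene that rises or falls steadily gives a contrast near 0 when MZ is set against the mean of SZ and DZ. A gene that is high in one outer zone only gives a contrast too, so MZ must also lie outside both neighbours before a peak or a dip can be described.

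The arrays were alike in scale. Their median log2 expression lay between 4.42 and 4.46, their lower quartile between 2.71 and 2.87 and their highest value between 13.73 and 14.15. Without detection calls, values near or under the lower quartile are read as dim and the size of a difference against them as uncertain. SZ and MZ arrays share a code in their sample descriptions and DZ arrays carry another. The labels do not say what the code stands for, and code and deep zone cannot be told apart. MZ minus SZ compares arrays of 1 code, so it is given beside the contrast of each called gene. The median of 27 Bacillus control probesets fell along the depth, from 5.88 and 6.24 in SZ through 4.90 and 4.17 in MZ to 3.61 and 3.56 in DZ, and the middle zone was not the extreme. The cyclophilin 3' minus 5' value, which reads length bias of RNA or amplification, was 2.24 and 1.69 in SZ, 2.23 and 2.66 in MZ and 3.30 and 2.54 in DZ.

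The middle zone was marked by low expression of a few genes, and no gene with a peak there passed the test on the main table. Spondin 1 (SPON1), DPYSL3, IFITM1 and the hyaluronan receptor CD44 were lower in MZ than in the outer zones by 3.04 to 3.50 on the log2 scale, and each was lowest in MZ in both animals. Among them only DPYSL3 had an adjusted p under 0.05 in limma's comparison with each single outer zone. For SPON1 most of the contrast came from SZ, with MZ minus DZ at −1.30 (adjusted p = 0.127). MMP13, PLS1, ACP5 and BOLA-DRA passed the test of the contrast as well, but they were high in DZ and low in both other zones. In all, 11 of 24016 probesets passed limma's moderated test at an adjusted p under 0.05 (0.0458%), 1 higher in MZ (0.00416%) and 10 lower (0.0416%). All 10 lower probesets read below both outer zones in both animals, and the 1 higher probeset, of the proteoglycan gene OGN, did not read above both. The results below describe 9 of the 11 probesets.

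**Figure D1:**
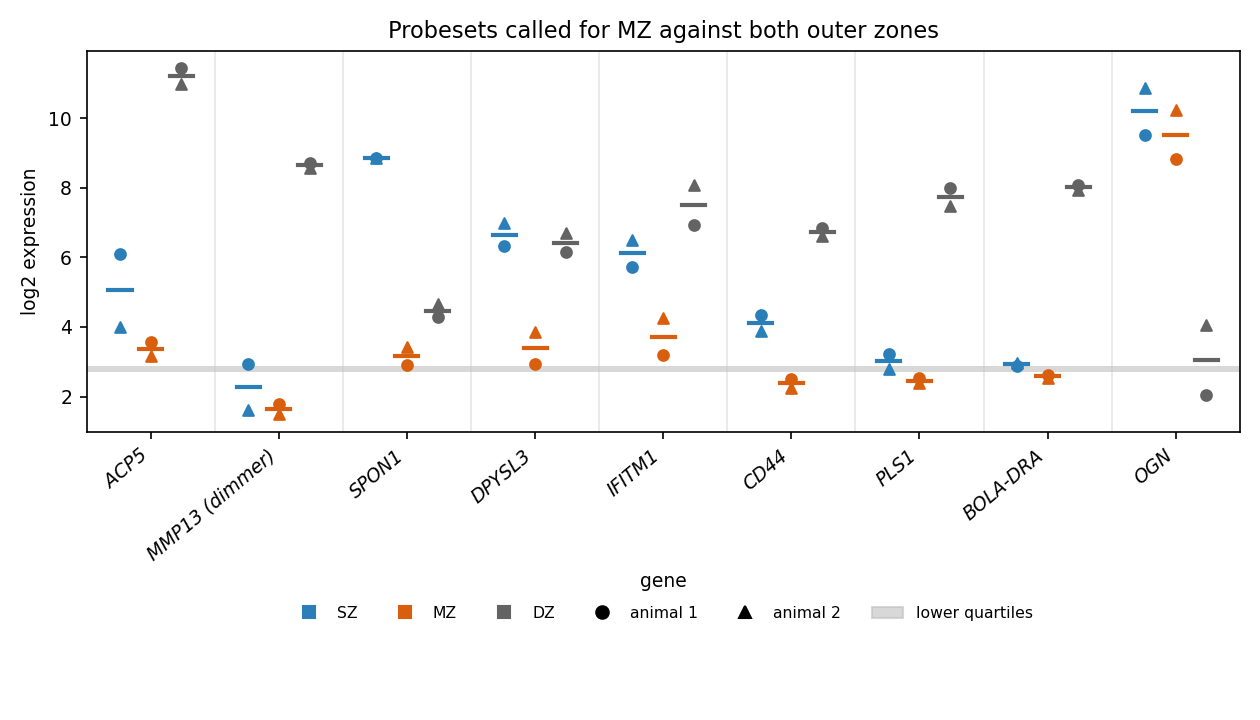
Log2 expression on each array (y axis) for 9 of the 11 probesets called for MZ against both outer zones (x axis, by contrast). Colours mark zones, symbols mark animals, short bars are zone means and the grey band spans the arrays' lower quartiles. SPON1, DPYSL3, IFITM1 and CD44 are lowest in MZ with both outer zones above, whereas ACP5, MMP13, PLS1 and BOLA-DRA stand high in DZ only, and OGN stands low in DZ only.

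The number of calls changed when single arrays were left out and when dim values were handled otherwise. The cause was not tested, and the called probesets of SPON1, DPYSL3, IFITM1 and ACP5 had no array under its lower quartile. A filter on dim probesets gave 42 calls. With values floored at each array's lower quartile the number of calls was 0 (lowest adjusted p = 0.0894, with 1655 probesets at an unadjusted p under 0.05). It was also 0 without MZ replicate 1, without MZ replicate 2, without DZ replicate 1 or without DZ replicate 2, where 768, 1659, 1320 and 1961 probesets had an unadjusted p under 0.05 in limma's test against 1573 on all 6 arrays (6.55%). It was 20 without SZ replicate 1 and 29 without SZ replicate 2, and both sets held all 11. A fit without the animal block gave 0. Between the animals, the contrast correlated with r = 0.33 across the 24016 probesets, which share arrays and are not independent of each other.

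DPYSL3, a cytoskeleton-binding protein best known from growing axons, had a dip of like size against both outer zones. It read 6.32 and 6.99 in SZ, 2.95 and 3.87 in MZ and 6.14 and 6.70 in DZ (animal 1 and animal 2). Both MZ arrays lay more than 2 log2 units under every outer array, and the outer zones overlapped. The contrast was −3.13 (SE 0.20, adjusted p = 0.0223), an 8.75-fold lower level. MZ minus SZ was −3.25 (adjusted p = 0.0339) and MZ minus DZ was −3.01 (adjusted p = 0.00906). These single comparisons share the MZ arrays.

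IFITM1, an interferon-induced membrane protein that limits virus entry, read 5.72 and 6.51 in SZ, 3.19 and 4.25 in MZ and 6.92 and 8.07 in DZ. MZ lay under all outer arrays, with DZ the highest zone in each animal. Its contrast was −3.09 (SE 0.20, adjusted p = 0.0223), with −2.40 against SZ (adjusted p = 0.0542) and −3.78 against DZ (adjusted p = 0.00527). The gene has close relatives that can share probe sequence, and its dimmer probesets read −1.22 and 0.08, so the size is uncertain.

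CD44, the main cell-surface receptor for hyaluronan, was measured by 1 named probeset. It read 4.35 and 3.87 in SZ, 2.52 and 2.24 in MZ and 6.83 and 6.62 in DZ. Both MZ arrays lay under their lower quartile and no zones overlapped. The contrast was −3.04 (SE 0.20, adjusted p = 0.0223), with −1.73 against SZ (adjusted p = 0.0759) and −4.35 against DZ (adjusted p = 0.00499).

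SPON1, a secreted protein of the extracellular matrix, stood near 8.9 only at the surface. Its values were 8.87 and 8.86 in SZ, 2.90 and 3.44 in MZ and 4.28 and 4.66 in DZ. MZ was again lowest in both animals, but most of the contrast of −3.50 (SE 0.22, adjusted p = 0.0223) came from SZ. MZ minus SZ was −5.69 (adjusted p = 0.00825), whereas MZ minus DZ was −1.30 (adjusted p = 0.127). A dimmer probeset read 5.97 and 6.22 in SZ, 2.72 and 2.88 in MZ and 2.95 and 2.66 in DZ, so that it did not place MZ below DZ (contrast −1.65, adjusted p = 0.125).

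The other genes described here as called lower separated DZ from the rest. ACP5, the tartrate-resistant acid phosphatase of osteoclasts, read 6.11 and 3.99 in SZ, 3.57 and 3.15 in MZ and 11.44 and 10.98 in DZ. Its contrast was −4.77 (SE 0.39, adjusted p = 0.0327), of which MZ minus SZ gave −1.69 (adjusted p = 0.319), and dimmer probesets read −2.91, −0.98 and −0.029. BOLA-DRA encodes a chain of the class II histocompatibility complex. It read 2.89 and 2.95 in SZ, 2.61 and 2.55 in MZ and 8.08 and 7.94 in DZ. It was dim in both upper zones, and MZ minus SZ was −0.34 (adjusted p = 0.756) beside a contrast of −2.89 (SE 0.19, adjusted p = 0.0223). PLS1, the actin-bundling protein plastin 1, showed the same shape at 3.22 and 2.80, 2.53 and 2.39, and 7.98 and 7.48 (contrast −2.91, SE 0.20, adjusted p = 0.0223; MZ minus SZ −0.55, adjusted p = 0.576).

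MMP13, the collagenase of hypertrophic cartilage, passed with the dimmer of its probesets, at −3.83 (SE 0.30, adjusted p = 0.0327). MZ minus SZ was −0.64 with that probeset (adjusted p = 0.686) and −1.09 with the brightest (adjusted p = 0.585). The brightest read 4.32 and 2.28 in SZ, 2.24 and 2.19 in MZ and 9.89 and 9.12 in DZ, with a contrast of −4.19 (adjusted p = 0.0514). Both probesets were dim in MZ. OGN, a small leucine-rich proteoglycan, was the only probeset called higher, at 9.51 and 10.88 in SZ, 8.83 and 10.23 in MZ and 2.04 and 4.05 in DZ. MZ lay just under SZ in both animals, by −0.66 (adjusted p = 0.55), and 6.48 above DZ (adjusted p = 0.00295), so its contrast of 2.91 (SE 0.23, adjusted p = 0.0327) describes a loss in DZ and not a peak.

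**Figure D2:**
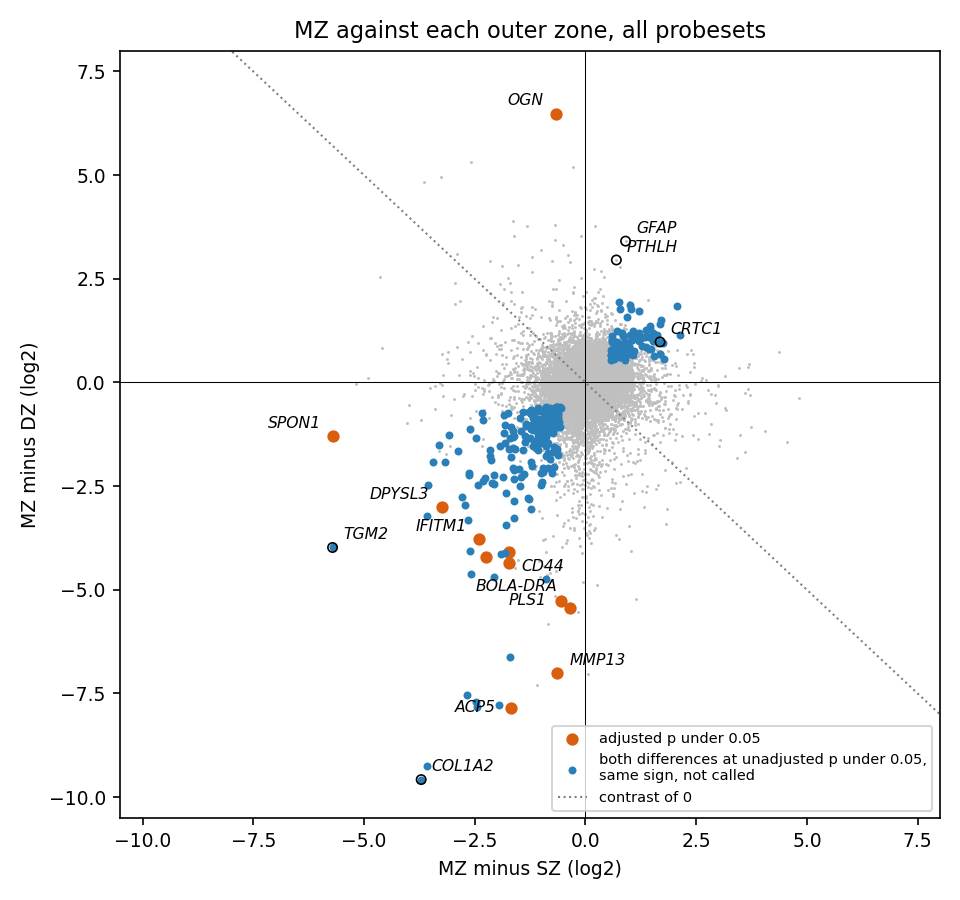
MZ minus SZ (x axis) and MZ minus DZ (y axis) in log2 for all 24016 probesets, with called probesets in orange (9 of 11 labelled), and in blue those not called whose both differences have the same sign at an unadjusted p under 0.05. Black rings mark further genes named in the text, and points on the dotted line have a contrast of 0. Dips at lower left reach further from the origin than peaks at upper right, and the axes share the MZ arrays.

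Over all probesets, those with an unadjusted p under 0.05 for the contrast numbered 644 with MZ higher (2.68%) and 929 with MZ lower (3.87%). MZ lay above both outer zones in both animals for 469 of them (1.95% of all tested) and below both for 609 (2.54%). Without any threshold the order was the other way, since MZ was highest in both animals for 2605 probesets (10.8%) and lowest for 1988 (8.28%). Dips were thus fewer by position but more often large against the replicate spread. When each outer zone had to differ by itself at an unadjusted p under 0.05, 96 probesets had MZ above (0.4%) and 191 had MZ below (0.795%). With the weaker p of both comparisons adjusted over all probesets, limma called 0 in either direction, and the lowest adjusted p was 0.263. MZ minus SZ by itself called 10 probesets (0.0416%) and MZ minus DZ called 169 (0.704%).

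Below, genes are represented by their brightest probeset (11626 genes). At an unadjusted p under 0.05, 279 genes were higher in MZ (2.4%) and 529 lower (4.55%). Each outer zone differed by itself for 34 genes with MZ above (0.292%) and 107 with MZ below (0.92%). The median contrast over all genes was 0.02. With adjustment, 9 genes passed (0.0774%). The counts by list that follow use the unadjusted p, and except where an adjusted p under 0.05 is printed the genes named did not pass the adjusted test.

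Of 33 measured genes of the integrin and cell-surface receptor list, 11 (33.3%) read lower at an unadjusted p under 0.05 against 4.55% of all genes, and 0 read higher. CD44 alone passed, and the median contrast of the list was −0.56. NRP1, a receptor of semaphorins and VEGF, read 5.43 and 4.06 in SZ, 2.14 and 2.12 in MZ and 5.44 and 6.94 in DZ, a contrast of −3.34 (SE 0.54, adjusted p = 0.186). NRP2, its relative, had a contrast of −1.85 (adjusted p = 0.186), and the complement regulator CD55 one of −2.68 (adjusted p = 0.131). MZ was the lowest zone in both animals for all 3. NRP1 and CD55 were under the lower quartile on both MZ arrays. Of the 33 genes MZ was lowest in both animals for 8 and highest for 2, against 8.28% and 10.8% of all probesets. For 4 both single comparisons had an unadjusted p under 0.05 with MZ below, against 0.92% of all genes. Others differed from DZ alone, such as the cadherin CDH2, at 3.76 and 2.55, 2.31 and 2.27, and 6.22 and 7.65.

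Of 33 measured growth factor and IGF genes, 13 (39.4%) read lower and 0 higher, with a median of −0.21 and 0 called. MZ was the lowest zone in both animals for 5 of the 33, against 8.28% of all probesets. For 3 of them MZ was below each outer zone at an unadjusted p under 0.05, against 0.92% of all genes. PDGFC, a ligand of PDGF receptors, read 6.35 and 5.58 in SZ, 3.24 and 3.13 in MZ and 5.35 and 6.54 in DZ. The outer zones overlapped and both MZ arrays lay 2 log2 units or more under each of them, giving −2.77 (SE 0.40, adjusted p = 0.149) with −2.78 against SZ and −2.76 against DZ. VEGFC, a growth factor of lymphatic vessels, had a contrast of −2.40 (adjusted p = 0.186) and IGFBP4, which binds IGF, one of −2.15 (adjusted p = 0.402). For PTN, a heparin-binding growth factor that read 7.71 and 8.27 in SZ, MZ at 5.75 and 5.38 was level with DZ at 5.85 and 5.06, so its contrast of −1.16 reflects the surface. IGFBP5 had −2.48 with DZ arrays as far apart as 8.49 and 3.96.

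Actin and intermediate filament genes read lower in MZ for 9 of 40 measured (22.5%) and higher for 1 (2.5%), with 0 called and a median of −0.23. ACTB, cytoplasmic beta actin, read 12.01 and 11.81 in SZ, 11.30 and 11.33 in MZ and 11.82 and 11.68 in DZ, a contrast of −0.51 (SE 0.20, adjusted p = 0.729). VIM (vimentin), PFN1 (profilin 1) and MSN (moesin) had contrasts of −0.62, −0.68 and −0.67. Larger ones belonged to TAGLN2 at −1.90, TMSB10 at −1.75 (−0.65 against SZ) and the capping protein CAPG at −1.15. CAPG differed at an unadjusted p under 0.05 from each outer zone, at 5.42 and 4.88, 3.73 and 4.08, and 4.90 and 5.03. MYO10, the myosin of filopodia, belongs to no list and was chosen for its shape, at 9.06 and 8.87, 7.33 and 6.30, and 8.75 and 8.42 (contrast −1.97, adjusted p = 0.114).

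Of 19 measured interferon-induced genes, a list that does not hold IFITM1, 7 (36.8%) read lower and 0 higher, with a median of −0.55 and 0 called. OAS2, an antiviral synthetase, read 4.54 and 6.43 in SZ, 3.14 and 3.22 in MZ and 5.38 and 5.76 in DZ (−2.34, SE 0.39, adjusted p = 0.186). IFI6 had the lowest contrast of the list, −3.61 (SE 0.64, adjusted p = 0.218), but −2.11 in animal 1 and −5.11 in animal 2, and both its MZ arrays were under the lower quartile. The transcription factor IRF1 had −1.01 and PSMB8, an immunoproteasome subunit, −1.64. OAS2, IFI6 and IRF1 were those with both single comparisons at an unadjusted p under 0.05.

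TGM2, the transglutaminase that cross-links matrix proteins, was bright in both outer zones and dim between them. It read 9.52 and 6.71 in SZ, 2.16 and 2.65 in MZ and 6.80 and 5.97 in DZ. Both MZ arrays lay under their lower quartile and under every outer array. The contrast was −4.85 (SE 0.61, adjusted p = 0.114), with −5.71 against SZ and −3.98 against DZ, and it passed in 4 of 13 alternative settings. THBD, the thrombin receptor thrombomodulin, read 5.16 and 5.08, 2.57 and 2.43, and 4.40 and 5.06 (−2.42, adjusted p = 0.0583), and passed in 4 of 13 as well. PTPRG, a receptor phosphatase, read 6.72 and 6.27, 4.56 and 4.29, and 6.57 and 7.19 (−2.26, adjusted p = 0.107), and its dimmer probeset gave −1.27. In the list of collagen folding and cross-linking 3 of 36 read lower, among them TGM2 and the collagen hydroxylase P3H2 (−1.48), and 3 read higher (8.33% each way), with a median of −0.12.

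Collagen genes of bone and of hypertrophic cartilage reached the lowest contrasts of all named genes, and their profiles led to DZ. COL1A2, a chain of type I collagen, read 7.64 and 5.19 in SZ, 2.95 and 2.46 in MZ and 11.79 and 12.77 in DZ. The contrast was −6.64 (SE 0.63, adjusted p = 0.0514), MZ minus SZ was −3.71 (adjusted p = 0.171) and the gene passed in 5 of 13 alternative settings. COL1A1 had −4.86 (adjusted p = 0.144), with SZ arrays at 9.09 and 5.75, MZ at 5.98 and 4.95 and DZ at 13.05 and 13.43. COL10A1, the collagen of hypertrophic chondrocytes, read 8.12 and 3.99, 3.52 and 3.25, and 12.34 and 9.48 (−5.10, SE 0.71, adjusted p = 0.14). In animal 1 the superficial array of all 3 collagens was well above the MZ array, and in animal 2 it was nearer. Of 18 measured hypertrophy and mineralisation genes 4 read lower (22.2%) and 0 higher, with a median of −0.44, among them ALPL, the phosphatase of mineralising cells, at −2.70. IBSP (bone sialoprotein) had −4.14 in animal 1 and 0.058 in animal 2.

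**Figure D3:**
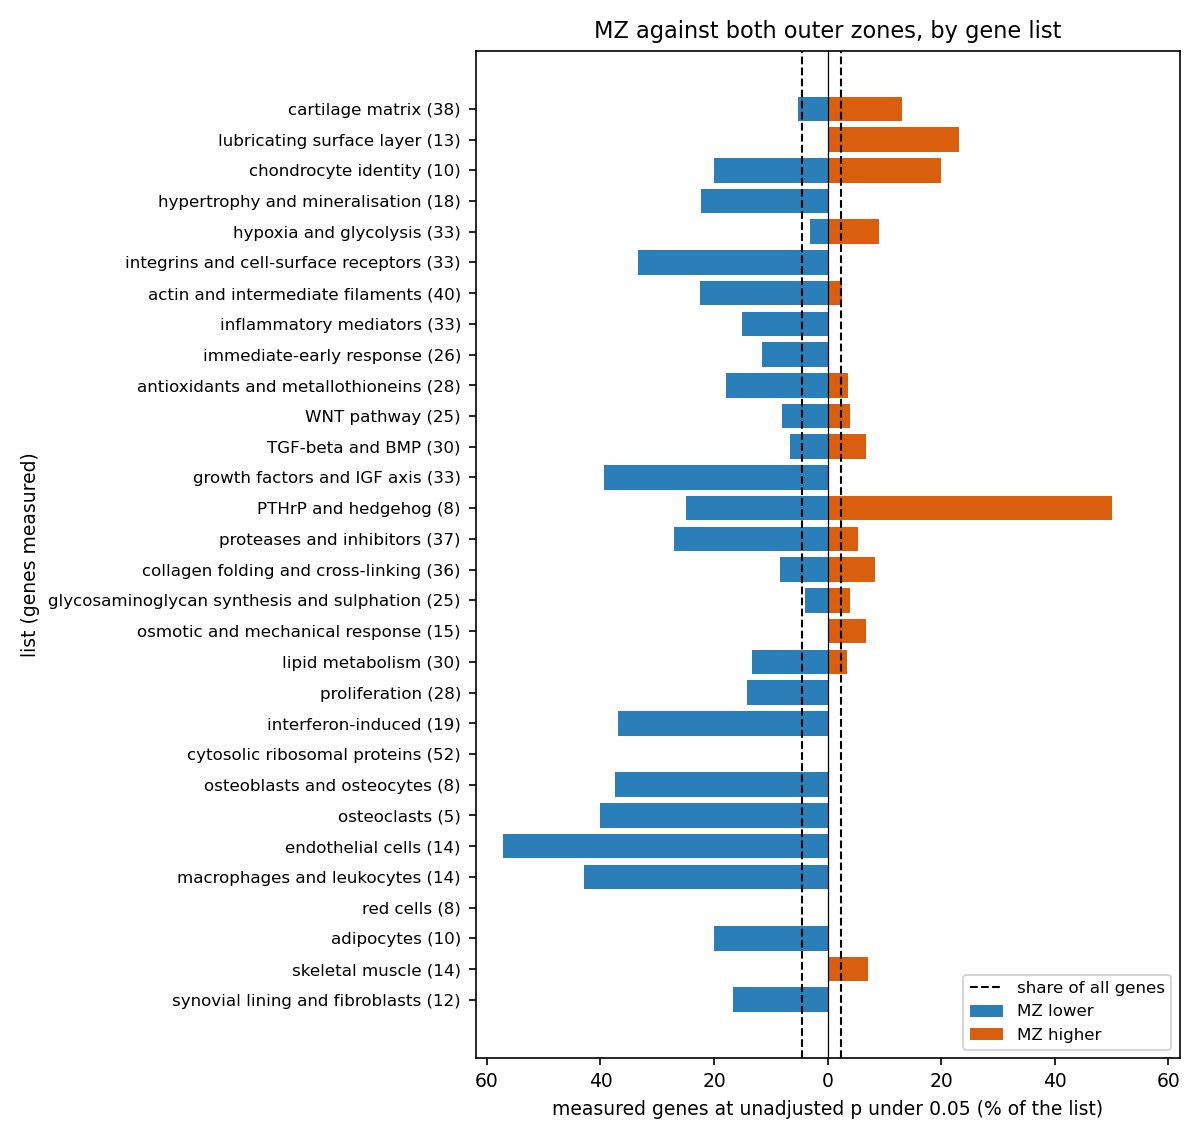
Share of measured genes of each list (y axis, number measured in brackets) with an unadjusted p under 0.05 for MZ against both outer zones (x axis, percent), lower to the left and higher to the right. Dashed lines mark the shares of all genes, 4.55% lower and 2.4% higher. Endothelial, leukocyte, osteoclast and bone markers, growth factors, interferon-induced genes and cell-surface receptors reach furthest to the left, PTHrP and hedgehog genes furthest to the right, and ribosomal protein genes have no bar.

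At an unadjusted p under 0.05 fewer genes were higher in MZ than lower, and those with a peak are described next. PTHLH encodes parathyroid hormone-related protein, which holds back chondrocyte hypertrophy. It read 6.23 and 6.25 in SZ, 7.33 and 6.55 in MZ and 3.79 and 4.19 in DZ. MZ lay above every outer array, by 0.70 over the mean of SZ (adjusted p = 0.634) and 2.95 over DZ (adjusted p = 0.0281), and the contrast was 1.83 (SE 0.28, adjusted p = 0.18). Its receptor PTH1R increased along the depth instead, at 6.14 and 4.63, 6.83 and 6.14, and 9.35 and 8.93.

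The PTHrP and hedgehog list was split. Of 8 measured, 4 read higher, PTHLH included (50%, against 2.4% of all genes), 2 lower, PTH1R and HHIP (25%), and 0 were called, with a median of 0.62. MZ was above each outer zone at an unadjusted p under 0.05 for 0 of the 8. BOC, a hedgehog co-receptor, read 7.44 and 8.22, 8.08 and 8.41, and 5.16 and 6.23 (1.48, SE 0.23, adjusted p = 0.18). PTCH1, the hedgehog receptor and a target gene of the pathway, read 3.94 and 3.55, 4.28 and 5.06, and 3.86 and 4.09 (0.81, adjusted p = 0.654), and the hedgehog factor GLI3 had 0.74. The ligand IHH had the lowest contrast of the list, −1.46 (adjusted p = 0.803), at 3.57 and 3.28, 4.29 and 2.70, and 8.47 and 4.51. MZ was above both outer zones in both animals for BOC, PTCH1 and GLI3, by little over SZ for BOC and GLI3 (0.41 and 0.39).

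**Figure D4:**
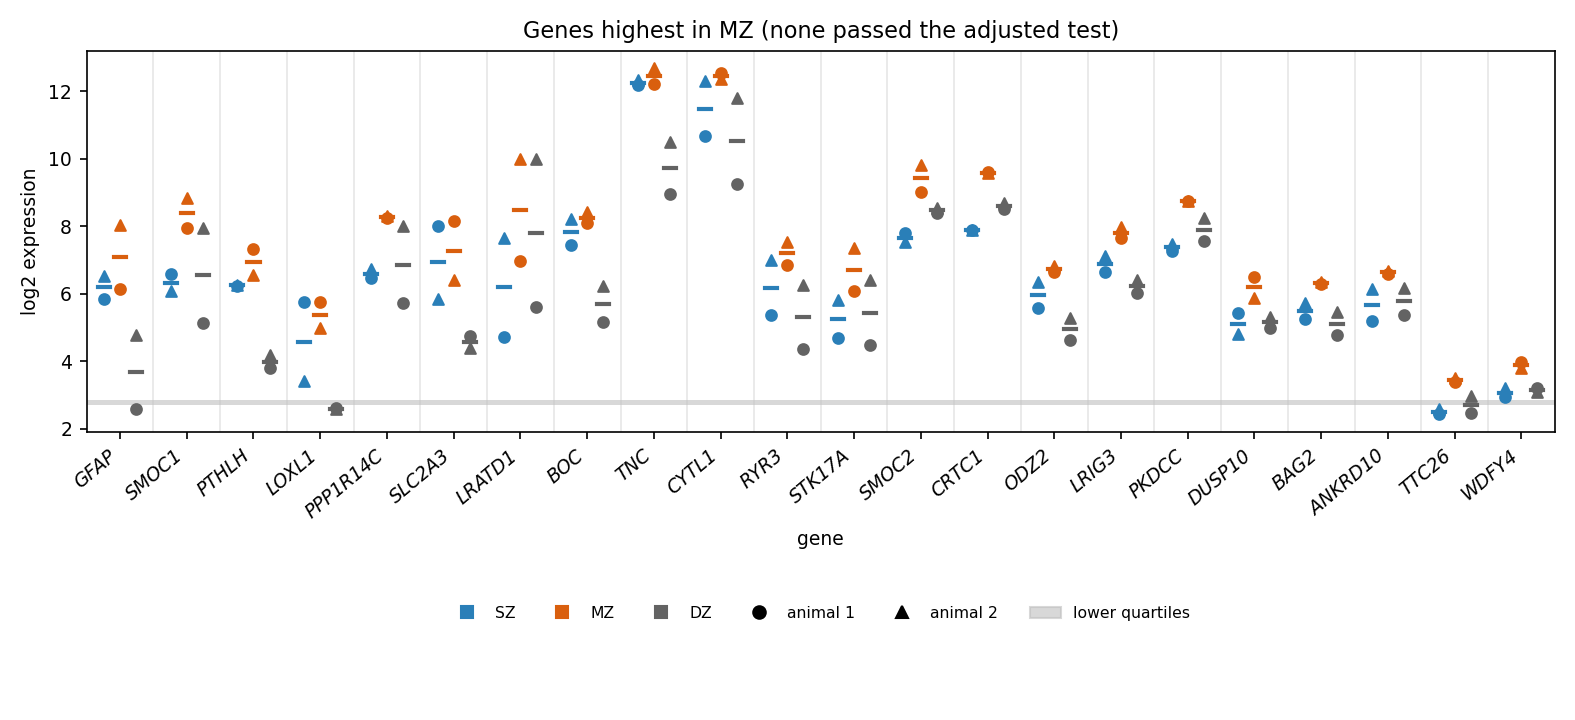
Log2 expression on each array (y axis) of the named genes with MZ above both outer zones in both animals (x axis): the 10 with the highest contrast, then 12 ranked by the weaker of both single comparisons. Colours mark zones, symbols mark animals, bars are zone means and the grey band spans the arrays' lower quartiles. CRTC1, LRIG3, SMOC2, ODZ2 and BAG2 have both MZ arrays above all outer arrays, while for LRATD1 the animals differ more than the zones.

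A further set of peaks was ranked by the weaker of both single comparisons. CRTC1, a coactivator of CREB, read 7.90 and 7.89 in SZ, 9.59 and 9.57 in MZ and 8.51 and 8.70 in DZ. No zones overlapped, and the contrast was 1.33 (SE 0.20, adjusted p = 0.162), with 1.68 against SZ and 0.98 against DZ. It rested on 1 probeset, since the 5 dimmer probesets named CRTC1 lay between −0.37 and 0.11 and the median over all 6 gave 0.071. LRIG3, a leucine-rich membrane protein, read 6.64 and 7.11, 7.63 and 7.98, and 6.02 and 6.42 (1.26, SE 0.19, adjusted p = 0.175). PKDCC, a secreted kinase of skeletal development, read 7.27 and 7.48, 8.75 and 8.75, and 7.56 and 8.23 (1.11, adjusted p = 0.273).

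SMOC1 and SMOC2 are secreted calcium-binding proteins of one family, and both were highest in MZ. SMOC2 read 7.78 and 7.54 in SZ, 9.02 and 9.81 in MZ and 8.39 and 8.55 in DZ (1.35, SE 0.26, adjusted p = 0.261), and with a dimmer probeset 0.96, where MZ was not above both zones in both animals. SMOC1 read 6.57 and 6.08, 7.95 and 8.83, and 5.14 and 7.95, with a contrast of 1.95 (SE 0.61, adjusted p = 0.599). Its MZ array of animal 1 was level with the DZ array of animal 2. The lysyl oxidase relatives LOXL1 and LOXL2, which cross-link elastin and collagen, had 1.78 (adjusted p = 0.44) and 0.92 (adjusted p = 0.532). LOXL1 read 5.74 and 3.42 in SZ, 5.76 and 4.98 in MZ and 2.60 and 2.59 in DZ. Both its DZ arrays were under their lower quartile, and MZ was 0.79 above SZ and 2.77 above DZ. LOXL2 was the gene of the cross-linking list with MZ above each outer zone at an unadjusted p under 0.05, at 5.68 and 5.42, 6.38 and 6.68, and 5.27 and 6.06.

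GFAP, an intermediate filament gene best known from astrocytes, had the highest contrast among the named genes with a peak, 2.16 (SE 0.34, adjusted p = 0.186). It read 5.86 and 6.51 in SZ, 6.15 and 8.03 in MZ and 2.58 and 4.78 in DZ, so MZ was highest within each animal while SZ and MZ arrays overlapped between them. Its dimmer probeset read 0.26. The overlap between animals was also seen for the glucose transporter SLC2A3 (8.01 and 5.85, 8.14 and 6.41, 4.76 and 4.40; contrast 1.52, adjusted p = 0.431) and for tenascin C (TNC), with 1.46 and MZ 0.19 above SZ. CYTL1, a secreted protein of chondrocytes, had 2.59 in animal 1 and 0.33 in animal 2. Further genes with MZ above both neighbours were PPP1R14C at 1.54, LRATD1 at 1.49, the calcium channel RYR3 at 1.44, the kinase STK17A at 1.37, the teneurin ODZ2 at 1.27 (1.79 in the dCHIP table, where it passed with an adjusted p of 0.0490), the MAP kinase phosphatase DUSP10 at 1.06, the HSP70 co-chaperone BAG2 at 1.01, ANKRD10 at 0.92, TTC26 at 0.84 and WDFY4 at 0.78 (adjusted p from 0.207 to 0.561). WDFY4 and TTC26 read under 4 on every array. Dimmer probesets gave 0.61, 0.11 and −0.74 for ANKRD10, 0.038 for STK17A and −0.077 for WDFY4. They gave 0.82 for RYR3 and 1.10 for ODZ2. With none of these was MZ above both outer zones in both animals. It was so with dimmer probesets of BAG2 (0.57) and DUSP10 (1.19), though not with another of DUSP10 (0.40).

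Of 33 measured hypoxia and glycolysis genes, 3 read higher (9.09%, against 2.4% of all genes) and 1 lower (3.03%, against 4.55%), with a median of 0.20 and 0 called. MZ was highest in both animals for 8 of the 33, against 10.8% of all probesets. VEGFA, the hypoxia-inducible angiogenic factor, read 12.05 and 11.44 in SZ, 12.37 and 12.07 in MZ and 11.89 and 11.85 in DZ (0.42, SE 0.22, adjusted p = 0.847). The glucose transporter SLC2A1 had 0.46 and the histone demethylase KDM3A 0.59. The phosphofructokinase PFKP went the other way, at 6.54 and 5.83, 4.43 and 5.22, and 6.12 and 6.38 (−1.39, adjusted p = 0.397). CA9, a carbonic anhydrase, had 1.16, although its MZ array of animal 1, at 6.58, was not above the SZ array at 6.67.

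Several main matrix genes had contrasts near 0, which a level profile and a gradient both give. COL2A1, the fibrillar collagen of cartilage, had a contrast of 0.17 (SE 0.20) and the aggrecan gene ACAN one of 0.28 (SE 0.29), both at or near the top of the scale, where differences can be hidden. COMP had −0.11. CHAD, a leucine-rich matrix protein, increased with depth, at 10.84 and 10.41 in SZ, 12.01 and 12.09 in MZ and 12.50 and 12.61 in DZ, and had a contrast of 0.46. CILP and CILP2, genes of the cartilage intermediate layer proteins, have no named probeset here. Of 38 measured matrix genes 5 read higher (13.2%) and 2 lower (5.26%), the called genes being OGN and SPON1, with a median of 0.15. LUM, another leucine-rich proteoglycan, had −2.50 and was high in DZ. Ribosomal protein genes gave 0 of 52 in either direction, with a median of 0.09.

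Genes that were high at the surface had contrasts of either sign. PRG4, which encodes lubricin, read 13.37 and 13.53 in SZ, 9.63 and 12.11 in MZ and 4.28 and 6.82 in DZ, a contrast of 1.37 (adjusted p = 0.717). MZ was between the outer zones in both animals and nearer to SZ with this probeset. A dimmer probeset gave 0.85, and another, at 11.00 and 11.87, 5.12 and 8.45, and 4.03 and 4.47, turned the sign of the contrast to −1.05. THBS4 (thrombospondin 4) had 0.96 in the same way, and CLU (clusterin) 0.35. CNMD (chondromodulin) and the WNT antagonist FRZB were instead lowest in SZ, and their contrasts were positive too (1.34 for CNMD). FRZB read 6.83 and 6.39 in SZ, 10.90 and 9.74 in MZ and 10.98 and 10.28 in DZ, so its contrast of 1.70 (adjusted p = 0.131) came with a level in MZ near that of DZ. NOS2, SOD2 and UST had −1.51, −1.27 and −1.14, as they were high in SZ and near the DZ level in MZ.

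Markers of other cells that a slice could hold moved with the lower calls, through DZ. Of 14 measured macrophage and leukocyte markers 6 read lower in MZ (42.9%) and BOLA-DRA was called. The log2 of their summed signal was 7.38 to 7.47 in SZ, 7.16 to 7.24 in MZ and 9.50 to 9.61 in DZ. In MZ 5 of the 14 were under the lower quartile on both arrays, and ITGB2 and CD3E were so on all 6. Of 14 endothelial markers 8 read lower (57.1%) and 0 were called, with sums of 8.05 to 8.06, 7.55 to 7.82 and 8.90 to 10.35 in the same order, and again 5 under the quartile on both MZ arrays. MZ was the lowest zone in both animals for 5 of the 14, against 8.28% of all probesets. PECAM1 and KDR, which define endothelium, read 2.93 ± 0.22 and 2.08 ± 0.28 in MZ (SD, n = 2) and differed from SZ by 0.054 and 0.26, whereas the endothelial receptor TIE1 differed from SZ by −0.91. In these 2 lists 0 genes differed from each outer zone at an unadjusted p under 0.05.

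Osteoclast markers summed to 8.26 to 8.47 in SZ, 8.31 to 8.54 in MZ and 11.27 to 11.84 in DZ, with ACP5 and the integrin ITGB3 lower among 5 measured (40%). Osteoblast and osteocyte markers summed to 12.76 to 13.23, 13.41 to 13.47 and 14.69 to 14.98, with 3 of 8 lower (37.5%): COL1A1, COL1A2 and BGLAP, the gene of osteocalcin. In MZ COL1A1 read 5.98 and 4.95, COL1A2 2.95 and 2.46 and BGLAP 4.84 and 4.31. Other genes of the list therefore made up most of the MZ sum. Adipocyte markers summed to 7.34 to 7.73, 6.75 to 7.64 and 8.70 to 10.07, with 2 of 10 lower (20%), FABP4 at −2.96 and CFD. Synovial lining and fibroblast markers gave 2 of 12 lower (16.7%), DPT and PDPN, skeletal muscle markers 1 of 14 higher (7.14%) and red cell markers 0 of 8. The part of these cells in the differences from SZ and DZ was not tested, and fewer cells of a type cannot be told apart from less RNA per cell.

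**Figure D5:**
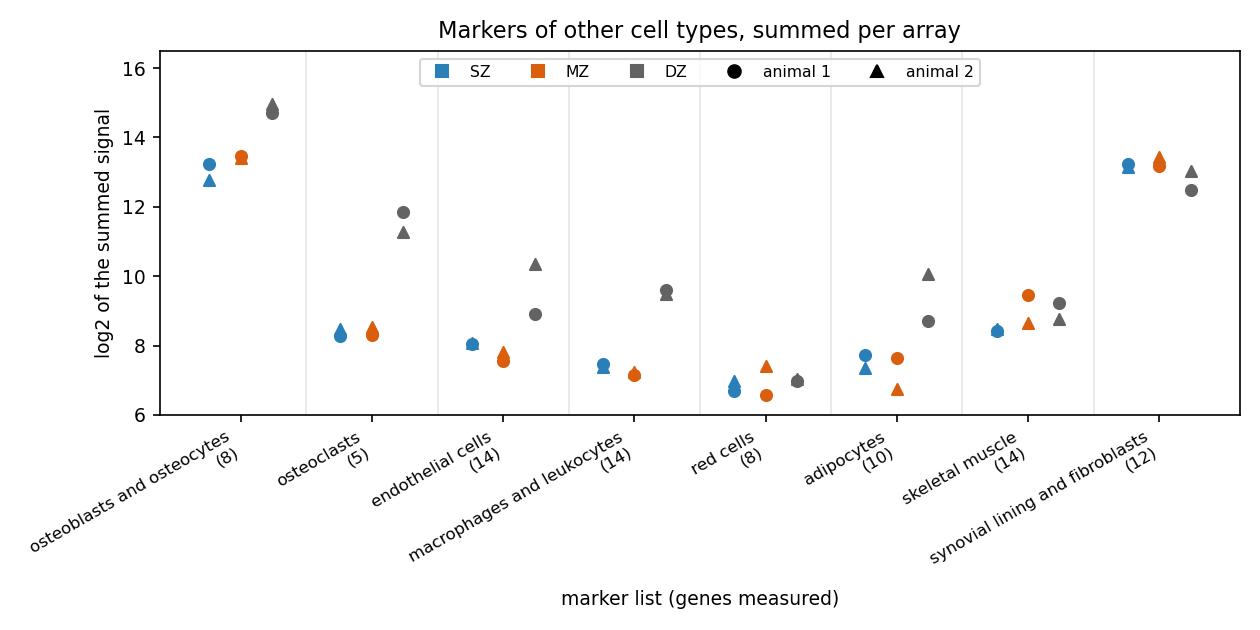
Log2 of the summed signal of 8 lists of markers of other cell types (x axis, number measured in brackets) on each array (y axis). Colours mark zones and symbols mark animals. For osteoblasts, osteoclasts, endothelial cells, leukocytes and adipocytes both DZ arrays stand above the 4 others, whereas SZ and MZ lie near each other.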

How the data were processed

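The values tested were the deposited log2 expression values of Affymetrix bovine arrays, which the authors had normalised. RMA is named in the submitters' processing notes, with no version given. A deposited dCHIP matrix of log2 values gave gene symbols and an alternative. Its settings are not given in the sources used here. RNA (5 ng per sample) was amplified before labelling, per the labels' protocols.

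Of 24128 probesets the 112 AFFX controls were left out. Symbols (17139 probesets, 961 renamed through RefSeq synonyms, ARS-UCD2.0) named 11626 genes, of which 10320 symbols are in that table. The brightest probeset stood for a gene. No sequence table was used.

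One model was fitted with limma 3.58.1 (R 4.3.3) to all 6 arrays, with zone and an animal block (residual degrees of freedom 2, prior 4.15). The contrast was MZ minus the mean of SZ and DZ, two-sided and adjusted by Benjamini-Hochberg over 24016 probesets. Equal replicate numbers are the same animal by the labels, and the difference between animals correlated between zones with r of 0.22 to 0.35. The fit was tested on simulated data. The number of arrays limits precision.

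Named were up to 15 called genes each way with MZ outside both zones in both animals, filled to 10 by size at an unadjusted p under 0.05, up to 3 called genes each way between the zones, up to 4 called genes of each of 30 lists, and 25 fixed genes (23 measured). A further 12 each way ranked by the weaker single comparison, and other list genes, were chosen after their values were seen. The result of 1 called gene is not reported here. Members, lists and fixed genes were chosen with earlier results of these data known. Alternatives were the dCHIP table, no block, a filter on dim probesets, quantile normalisation, another variance model, a floor, each array left out, single outer zones and the median probeset.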

Additional observations from a re-analysis of the deposited data

How the results depend on the processing

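Of 101 named genes none changed direction in the dCHIP table, the filter on dim probesets, the floor, quantile normalisation, the other variance model or the fit without the block. The count of called probesets was 11, with 1 higher, 10 lower, 0 above both outer zones and 10 below both. It was 42 in the dCHIP table (4 higher, 38 lower, 2 above both and 37 below both), which shared 10 of the 11. With the filter on dim probesets it was 42 (3, 39, 1 and 36) and with a mean-dependent robust prior variance 39 (3, 36, 1 and 33). With values floored at the lower quartile limma called 0 in each of these counts (1655 at an unadjusted p under 0.05), and with no replicate block 0 as well (1144). The cause of these changes was not tested. Leaving out 1 array gave 0 to 29 calls, 0 to 1 higher, 0 to 28 lower and 0 to 28 below both. Quantile normalisation gave 11 calls. MZ minus SZ alone gave 10 calls (4 higher, 6 lower, 3 below both), and MZ minus DZ alone 169 (22 higher, 147 lower, 8 above both, 77 below both). Requiring both single comparisons gave 0 calls in each setting with a count. CRTC1 fell from 1.33 to 0.071 with the median probeset.

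By construction, single outer zones turned the sign of genes that were bent and not extreme. Against SZ alone these were KDR (0.26), IBSP (1.15), PECAM1 (0.054), PTH1R (1.10), CLU (−1.70), THBS4 (−1.62), PRG4 (−2.58) and OGN (−0.66), and against DZ alone NOS2 (0.19), PTN (0.11), CHAD (−0.50), CNMD (−1.06) and FRZB (−0.31). Other uncalled genes turned too: COL2A1 (−0.18) and SREBF1 (−0.093) with the median probeset, and with 1 array left out CLU (−0.21 to 0.91, below 0 without DZ replicate 1 or SZ replicate 2), IBSP (−4.14 to 0.058, above 0 without MZ replicate 1), COMP (−0.57 to 0.35, above 0 without MZ replicate 1 or SZ replicate 1) and ACAN (−0.12 to 0.68, below 0 without MZ replicate 2). Dim signals limit the size of the dips, since both MZ arrays of CD44, PLS1, BOLA-DRA, MMP13, TGM2, THBD, NRP1, CD55, IFI6 and CDH2, among others, were under their lower quartile.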

Other observations

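Several lists outside the account above held more genes lower than higher in MZ, with 0 called by their brightest probeset. Of all genes, 4.55% read lower and 2.4% higher at an unadjusted p under 0.05. Of 37 proteases and inhibitors 10 read lower at an unadjusted p under 0.05 (27.0%) and 2 higher, with PLAT, the tissue plasminogen activator, at −2.40 (adjusted p = 0.162) and the secreted protease PRSS23 at −2.29 (adjusted p = 0.66). Of 28 antioxidant genes 5 read lower (17.9%) and 1 higher, with the glutathione peroxidase GPX1 at −1.43, lowest in MZ in both animals. Of 28 proliferation genes 4 read lower (14.3%) and 0 higher, and of 33 inflammatory genes 5 lower (15.2%) and 0 higher. Of 30 lipid genes 4 read lower (13.3%) and SREBF1, a transcription factor of lipid synthesis, read higher (1.24, adjusted p = 0.557). The counts of the WNT, TGF-beta and glycosaminoglycan lists were closer, with 1, 2 and 1 higher and 2, 2 and 1 lower of 25, 30 and 25. In the same order these were 4%, 6.67% and 4% higher and 8%, 6.67% and 4% lower. Of 13 genes of the lubricating surface layer 3 read higher (23.1%) and 0 lower. Of 10 chondrocyte identity genes 2 read higher and 2 lower (20% each way). Of 26 immediate-early genes 0 read higher and 3 lower (11.5%), and of 15 genes of the osmotic and mechanical response 1 higher (6.67%) and 0 lower. SMAD3, the TGF-beta signal transducer, had a contrast of 1.00 (adjusted p = 0.433), with MZ at 9.66 and 10.03 above both outer zones in both animals.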
